A study of Drosophila melanogaster and Drosophila simulans and Drosophila erecta with 10 samples.

Results

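The constitutive chaperones are protein-folding factors that a cell makes without heat stress. The name does not mean that heat leaves them unchanged, and no heat treatment was compared here. In testes of Drosophila melanogaster, 7 genes of such chaperones were followed. They were taken by FlyBase symbol from the table of testis gene expression: Hsc70-4, DnaJ-1, Hsp83, Hsc70-3, Hsc70-5, Hsp60A and Hsp60B. All 7 are listed among the 7326 genes of that table, with 1 value in each library and no member lost to a filter. The libraries are 2 from miR-983 knockout flies, called mutants here, and 2 from control flies. Both genotypes were 3- to 5-day-old adults cultured at 25 °C, and testes were the tissue sampled. The labels name no allele, strain or construct, and do not say whether a library pools several males. Replicates are biological according to the design text. Further libraries of the series, from Drosophila simulans, D. erecta and D. sechellia, were not analysed here.

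Chaperones of the Hsp70 family bind exposed hydrophobic stretches of a client protein and release them in a cycle driven by ATP. J-domain proteins such as DnaJ-1 deliver clients and start ATP hydrolysis, and nucleotide exchange factors restart the cycle. Hsp90 proteins act later on clients that are nearly folded, while Hsp60 chaperonins enclose a client in a chamber, in mitochondria with a lid made of the small GroES homolog. Each compartment has its own set. Hsc70-4 is the main cytosolic Hsp70, Hsc70-3 is the BiP of the endoplasmic reticulum, and Hsc70-5 is the mortalin of mitochondria. Sperm development uses dedicated paralogs too, and Hsp60B is known in Drosophila as a male fertility gene needed when spermatids are separated from their shared cytoplasm.

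The values are log2 expression as deposited, and run over the whole table between 1.00 and 12.69. Their relation to transcript length is not given in the sources used here, so levels are compared between libraries for a gene and not ranked between genes. Sequencing depth is unknown, since the table holds no read totals. The tissue label was set against marker genes: 21 of 23 germline genes of the testis are listed, with values of up to 10.51 on the log2 scale, while 0 of 5 neural, 1 of 8 accessory gland, 2 of 8 fat body and 4 of 10 muscle markers are. The highest muscle gene, Act57B, averaged 4.40 in mutants and 4.39 in controls. Of 7 genes taken as markers of somatic cells of the testis 2 are listed, MtnA and upd1, the latter with low values of 1.39 to 1.95. Every listed value is above 1, and an unlisted gene is not shown to be silent.

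None of the 7 constitutive chaperones passed the test between mutants and controls. That is 0 of 7 at a limma adjusted p under 0.05, where 2.28% of all genes were called, so a count of 0 among 7 genes does not set them apart. Without adjustment 1 of the 7, DnaJ-1, had a p under 0.05, which 12.7% of all genes had. DESeq2 marks in the authors' deposited table cover 0 of the 7, against 1.65% of all genes. The members' log2 fold changes lay between -0.21 and 0.09 with a median of -0.01, and the median over all genes was also -0.01. Mutant and control libraries were fully separated for 2 of the 7, Hsp60B upward and DnaJ-1 downward, where 42.3% of all genes were separated (17.9% upward and 24.3% downward).

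**Figure D1:**
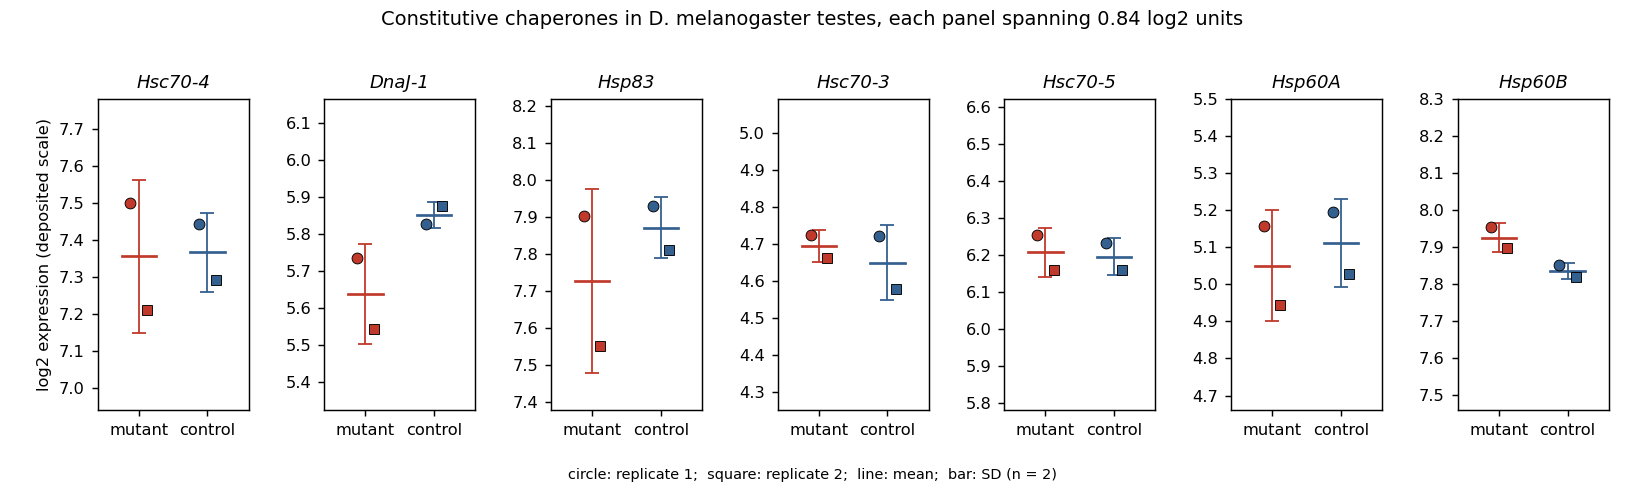
Log2 expression (deposited scale) of the 7 constitutive chaperones in 2 mutant (red) and 2 control (blue) testis libraries, with the mean and SD of each genotype; every panel spans the same range. DnaJ-1 and Hsp60B are the members whose genotypes do not overlap, and Hsc70-4 and Hsp83 have the widest spread between mutant libraries.

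In the cytosol, Hsc70-4 had log2 values of 7.50 and 7.21 in mutant testes, against 7.44 and 7.29 in control testes. The mutant libraries lay on either side of both controls, so the genotypes overlapped completely. The log2 fold change was -0.01 ± 0.10 (SE, n = 2 libraries per genotype), with a 95% interval from -0.25 to 0.23. That interval reaches from 0.841-fold to 1.17-fold, the range of changes that these libraries do not exclude. The value was smaller than its SE and turned to 0.00 after median ratio scaling and to 0.01 after quantile normalization.

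DnaJ-1, the Hsp40 co-chaperone that works with cytosolic Hsp70, was the member with the smallest p. Its log2 values were 5.73 and 5.54 in mutant testes, against 5.83 and 5.87 in control testes. Both mutant libraries were below both controls. In whole testes, fewer cells that express a gene and less RNA per cell cannot be told apart. The log2 fold change was -0.21 ± 0.08 (SE), or 0.863-fold, with an unadjusted limma p of 0.0236 and an adjusted p of 0.272 over all genes, so it did not pass. A change of this size or larger in either direction was seen in 12.9% of all genes. Without mutant replicate 2 the log2 fold change was -0.12, and without mutant replicate 1 it was -0.31. DnaJ-1 passed in 0 of 10 alternative settings. Its smallest limma adjusted p among them was 0.0623, with the replicate number fitted as a block.

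Hsp83, the cytosolic Hsp90 of the fly, had log2 values of 7.90 and 7.55 in mutant testes, against 7.93 and 7.81 in control testes. Mutant replicate 1 fell between the controls, and mutant replicate 2 was below all other libraries. The log2 fold change was -0.14 ± 0.11 (SE), with a 95% interval from -0.41 to 0.12 and a limma adjusted p of 0.705. The value rested on mutant replicate 2: without that library it was 0.03, and without mutant replicate 1 it was -0.32 (adjusted p = 0.121). Hsp83 overlaps the annotated gene CG14966, which is also listed and no source used here states whether counting used strand. CG14966 had log2 values of 2.86 and 2.88 in mutants and 2.70 and 3.13 in controls, with no change past the test (limma adjusted p = 0.95). The other 6 members overlap 0 annotated genes.

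In the endoplasmic reticulum, Hsc70-3 had log2 values of 4.72 and 4.66 in mutant testes, against 4.72 and 4.58 in control testes. Mutant replicate 2 lay between the controls, and mutant replicate 1 was level with the higher control. The log2 fold change was 0.04 ± 0.07 (SE), with a 95% interval from -0.12 to 0.21 and a limma adjusted p of 0.881. BiP is the textbook reporter of unfolded proteins in this compartment. Other genes of that response are given with the lists further on.

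Mitochondria hold the other chaperones of the set. Hsc70-5, which pulls proteins through the inner membrane and folds them in the matrix, had log2 values of 6.25 and 6.16 in mutant testes, against 6.23 and 6.16 in control testes. Its log2 fold change was 0.01 ± 0.06 (SE), with a 95% interval from -0.14 to 0.16, the narrowest of the 7 members. Hsp60A, the general mitochondrial chaperonin, had values of 5.16 and 4.94 in mutants, against 5.20 and 5.03 in controls. The genotypes overlapped, and the log2 fold change was -0.06 ± 0.09 (SE; 95% interval from -0.27 to 0.15). The limma adjusted p was 0.971 for Hsc70-5 and 0.871 for Hsp60A.

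Hsp60B, the male fertility paralog of Hsp60A, had log2 values of 7.95 and 7.90 in mutant testes, against 7.85 and 7.82 in control testes. Both mutant libraries were above both controls, and the gap between the genotypes was small. The log2 fold change was 0.09 ± 0.06 (SE), or 1.06-fold, with a 95% interval from -0.06 to 0.24 and a limma adjusted p of 0.659. Hsp60B was also the member whose replicates lay closest, 0.06 apart in mutants and 0.03 apart in controls on the log2 scale. Its value stayed positive over 10 alternative settings, from 0.06 to 0.12, and passed the test in 0 of them.

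**Figure D2:**
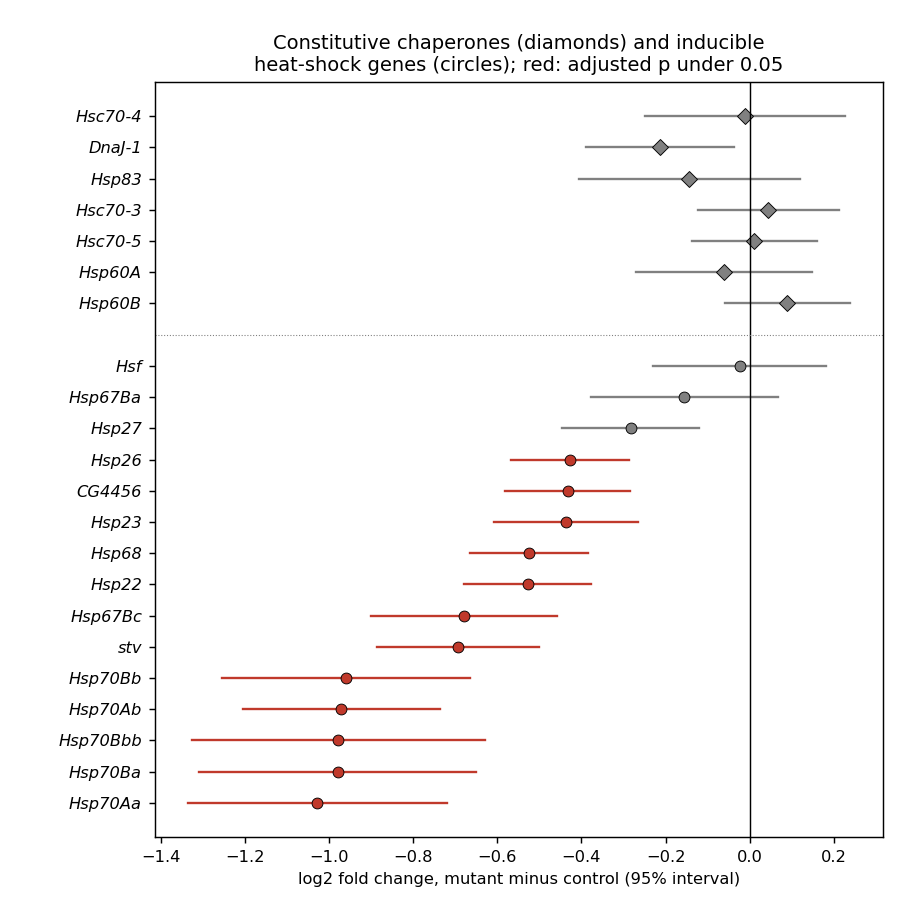
Log2 fold change, mutant minus control, with 95% limma intervals for the 7 constitutive chaperones (diamonds) and 15 inducible heat-shock genes (circles); red marks a limma adjusted p under 0.05. The intervals of 6 of the 7 constitutive chaperones cross 0, that of DnaJ-1 ends at -0.04, and 12 of the 15 inducible genes are red and lie below 0.

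The spread between replicates was uneven among the members and largest in Hsp83 and Hsc70-4. Mutant replicates differed by 0.35 on the log2 scale for Hsp83 and by 0.29 for Hsc70-4. Among genes within 1 log2 unit of the same level, the median gap between mutant replicates was 0.10 in each case. A gap at least as wide was found in 1.02% of the 295 genes near Hsp83 and in 1.65% of the 423 genes near Hsc70-4. The gaps of Hsp60A (0.21) and DnaJ-1 (0.19) were intermediate, and those of Hsc70-5 (0.09), Hsc70-3 (0.06) and Hsp60B (0.06) were below the median of all genes, 0.10. Mutant replicate 2 was the lowest library for 5 of the 7 members, level with control replicate 2 in Hsc70-5. The library numbered 1 was higher than that numbered 2 in both genotypes for 6 of the 7, which was so for 30.6% of all genes. For 5 of the 7 members the difference between genotypes was smaller than the difference between the mutant libraries, as it was for 57.3% of all genes.

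Of 21 listed germline genes of the testis 0 passed limma (2.28% of all genes), with a median log2 fold change of -0.03. An unadjusted p under 0.05 was found for 4 of them and for 12.7% of all genes. These were mia (0.45) and ProtB (0.25), higher in mutants, and Mst84Db (-0.39) and nht (-0.19), lower. The listed somatic genes upd1 (-0.23) and MtnA (0.35) did not pass. Some markers of other tissues differed between mutant and control libraries. The 4 listed muscle genes did not, with a median log2 fold change of 0.0004 and limma adjusted p of 0.747 or more. The accessory gland gene Acp95EF had a log2 value of 6.34 in mutant replicate 2, 4.42 in mutant replicate 1, and 4.16 and 4.12 in controls. It is the only listed marker of that gland among 8, and its mutants and controls did not differ past the test (limma adjusted p = 0.343). Both listed fat body genes were higher in mutants, Tsf1 by 0.80 ± 0.11 and NLaz by 0.62 ± 0.08 on the log2 scale (SE; limma adjusted p = 0.0103 and 0.00771), with both mutant libraries above both controls. The mean log2 value of these 2 genes was 5.05 and 5.31 in mutants, against 4.51 and 4.43 in controls, and the other 6 fat body markers are not listed. Whether other tissue was present in these libraries, and what part it had in the members' values, was not tested. Without mutant replicate 2 the log2 fold changes of Hsc70-4, Hsp83 and Hsp60A were 0.13, 0.03 and 0.05. In that setting DnaJ-1 stayed at -0.12, and Hsc70-3, Hsc70-5 and Hsp60B were at 0.08, 0.06 and 0.12.

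**Figure D3:**
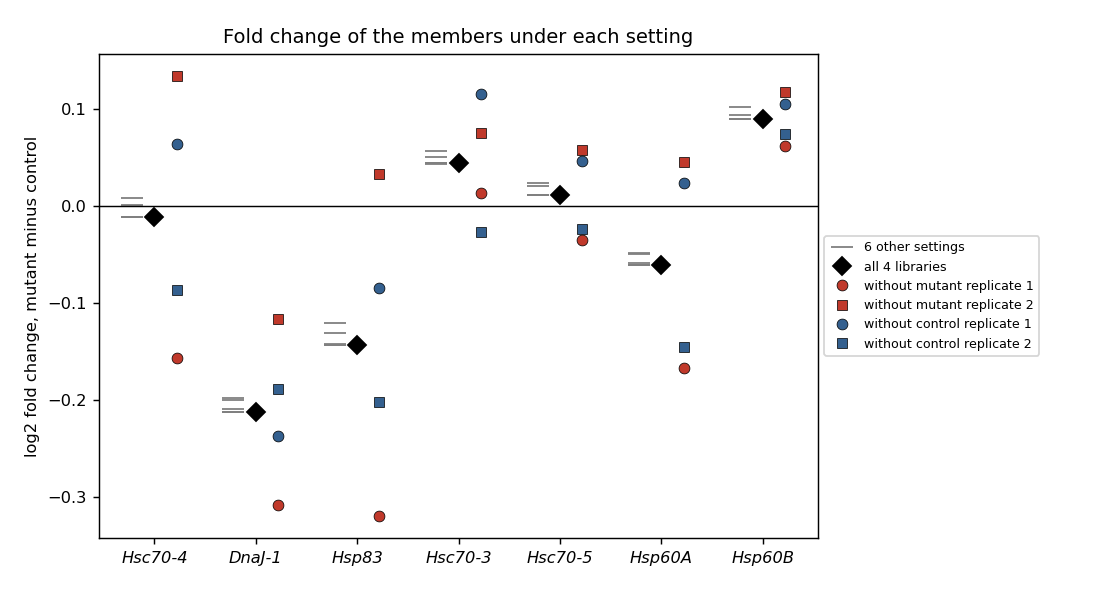
Log2 fold change, mutant minus control, of each constitutive chaperone with all 4 libraries (black diamond), with 1 library left out (coloured symbols) and under 6 other settings (grey bars). Leaving out mutant replicate 2 moves Hsp83 to 0.03 and Hsc70-4 to 0.13, while DnaJ-1 stays below 0 and Hsp60B above 0 in every setting drawn.

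A single scaling factor per library cancels in the difference between 2 genes of that library, though a pseudocount or a quantile scaling would not. Partner genes were compared in this way in 5 pairs. Hsp60B minus Hsp60A was 2.80 and 2.95 log2 units in mutants, against 2.66 and 2.79 in controls. Both mutant libraries were above both controls, the closest values being 2.797 in a mutant and 2.793 in a control. The difference between genotypes was 0.15, and it ranged from 0.07 without mutant replicate 2 to 0.23 without mutant replicate 1, with 0.08 without control replicate 1. DnaJ-1 minus Hsc70-4 was -1.77 and -1.67 in mutants, against -1.62 and -1.42 in controls. This difference was lower in both mutant libraries, by 0.20 between the means, and the difference between genotypes ranged from -0.30, leaving out control replicate 1, to -0.10, leaving out control replicate 2. Hsp83 minus Hsc70-4 was 0.40 and 0.34 in mutants, against 0.49 and 0.52 in controls. Here the replicates lay closer than for either gene alone, both genes being low together in mutant replicate 2, and the genotypes were apart with a difference of -0.13, which ranged from -0.16 to -0.10 with 1 library left out.

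The remaining pairs overlapped. Hsc70-3 minus Hsc70-4 differed by 0.06 between genotypes and Hsc70-5 minus Hsc70-4 by 0.02, with mutant values on both sides of the controls. Leaving out mutant replicate 2 turned them to -0.06 for Hsc70-3 and -0.08 for Hsc70-5, and the Hsc70-5 difference was -0.02 when control replicate 1 was left out. With 2 libraries per genotype the smallest p of an exact two-sided permutation test is 0.333, so no pair could pass. Among single genes 42.3% were separated, and no such share was computed for other gene pairs. All pairs but the Hsp60 pair share Hsc70-4, so the pairs are not independent. The exact p was 0.333 for each of the 3 separated pairs (0.556 adjusted over 5 pairs) and 1 for the other two. These are differences of values whose relation to transcript length is not given, so they show how a pair shifts between libraries and not which gene of it is the more abundant.

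**Figure D4:**
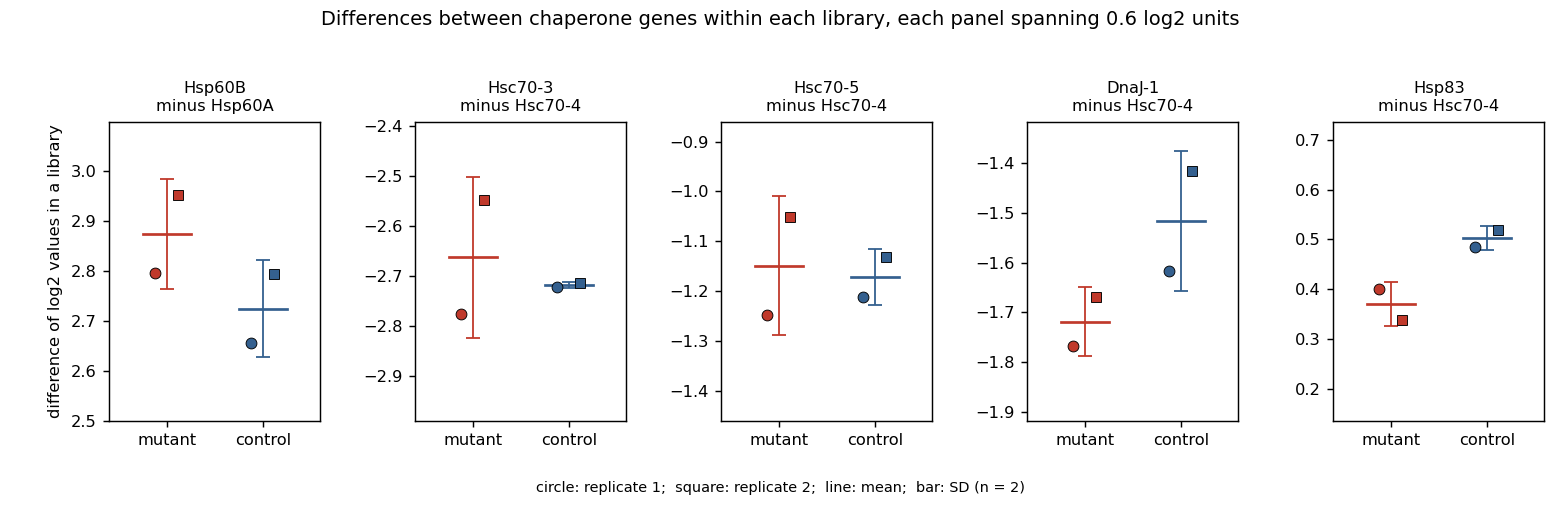
Difference of log2 values between 2 chaperone genes in each mutant (red) and control (blue) library, with mean and SD; every panel spans 0.6 log2 units. The genotypes are apart for Hsp60B minus Hsp60A, DnaJ-1 minus Hsc70-4 and Hsp83 minus Hsc70-4, and overlap for the other pairs. Single genes were apart in 42.3% of cases, and no pair could pass the permutation test.

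The wider folding network was read from 7 lists of co-chaperones and other chaperones, with 87 of 102 genes listed in the table. Of these 87 genes, 1 rose and 1 fell in mutants (limma adjusted p under 0.05), near the 1.05% of all genes that rose and the 1.23% that fell. Their median log2 fold change was -0.02, against -0.01 over all genes. The gene that rose is Dpit47, a co-chaperone of Hsp90 with tetratricopeptide repeats. The gene that fell is stv, which encodes starvin, the BAG-domain exchange factor of Hsp70 that is itself a heat-shock gene.

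Dpit47 had log2 values of 3.47 and 3.67 in mutant testes, against 2.49 and 2.62 in control testes. The genotypes were far apart, with a 2.01-fold difference (log2 fold change 1.01 ± 0.10, SE; limma adjusted p = 0.00203). The call was kept in all of 10 alternative settings, with log2 fold changes from 0.90 to 1.11, and the authors' deposited table also marks Dpit47 as past its DESeq2 threshold. Of 14 listed genes of the Hsp90 system, Dpit47 was the only one called, where 2.28% of all genes were called. An unadjusted limma p under 0.05 was found for 3 of the 14, Dpit47, CG1416 and mora, and for 12.7% of all genes. CG1416, the homolog of the Hsp90 activator Aha1, had 3.76 and 3.76 in mutants against 3.96 and 3.97 in controls, with a log2 fold change of -0.21 (adjusted p = 0.222). For the CHORD-domain gene mora it was 0.18 (adjusted p = 0.372) and -0.07 for Trap1, the mitochondrial Hsp90.

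Among the Hsp70 partners, stv had log2 values of 2.28 and 2.24 in mutants, against 2.97 and 2.94 in controls (log2 fold change -0.69 ± 0.08, SE; limma adjusted p = 0.00634). It was the only one of 5 listed exchange factors and binding partners to be called, where 2.28% of all genes were called. Roe1, the GrpE-type exchange factor that serves Hsc70-5 in mitochondria, had a log2 fold change of -0.13 (adjusted p = 0.43) and CG10973 of -0.15 (0.51). Of 4 other Hsp70 and Hsp110 genes 0 passed, and 1 had an unadjusted limma p under 0.05, which 12.7% of all genes had. That gene, Hsc70-1, had 5.45 and 5.61 in mutants against 5.79 and 5.77 in controls, a log2 fold change of -0.25 ± 0.07 (limma adjusted p = 0.139). Hsp110 had a log2 fold change of -0.07, and Hsc70-2, another Hsp70 cognate, one of -0.03.

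Of 27 other J-domain genes 0 passed limma, and 4 had an unadjusted p under 0.05. Of all genes 2.28% passed and 12.7% had such an unadjusted p, so these counts do not set the list apart. The smallest p belonged to CG2790, with a log2 fold change of -0.31 ± 0.07 (limma adjusted p = 0.0695), CG7387 at -0.18 (0.199) and CG30156 at 0.17 (0.272), each of which overlaps another annotated gene. In the chaperonin list 0 of 17 genes passed limma, and 1 had an unadjusted p under 0.05 (12.7% of all genes). This was CG11267, the GroES homolog that caps mitochondrial Hsp60, with log2 values of 3.73 and 3.69 in mutants against 3.91 and 4.24 in controls. Both mutant libraries were lower, but the controls differed from each other by almost as much, and the log2 fold change was -0.36 ± 0.11 (adjusted p = 0.174). It was -0.53 and passed without control replicate 1 (limma adjusted p = 0.000565), and it was -0.19 without control replicate 2. CCT4 and CCT3, subunits of the cytosolic TRiC ring, had log2 fold changes of -0.10 and 0.07. The Hsp60 paralogs Hsp60C and Hsp60D and the GroES paralog CG9920, chosen after their values were seen, had log2 fold changes of 0.05, -0.06 and 0.04, none past the test.

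Around Hsc70-3, 0 of 15 listed genes of folding and quality control in the endoplasmic reticulum passed limma. An unadjusted p under 0.05 was found for 1 of them, and for 12.7% of all genes. That gene is sip3, the homolog of the ubiquitin ligase Hrd1, whose log2 fold change was -0.29 ± 0.07 (limma adjusted p = 0.12); it passed without control replicate 2 (limma adjusted p = 0.0437). Xbp1, the transcription factor of the unfolded protein response, had a log2 fold change of -0.15 (adjusted p = 0.56), and prtp, a disulfide isomerase relative, of -0.07. Around Hsc70-5 and Hsp60A, 0 of 9 genes of mitochondrial import and proteolysis passed limma, with 2 at an unadjusted p under 0.05 (12.7% of all genes). These were CG11267 and the protease subunit gene ClpX, which had a log2 fold change of -0.17 ± 0.07 (limma adjusted p = 0.334).

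**Figure D5:**
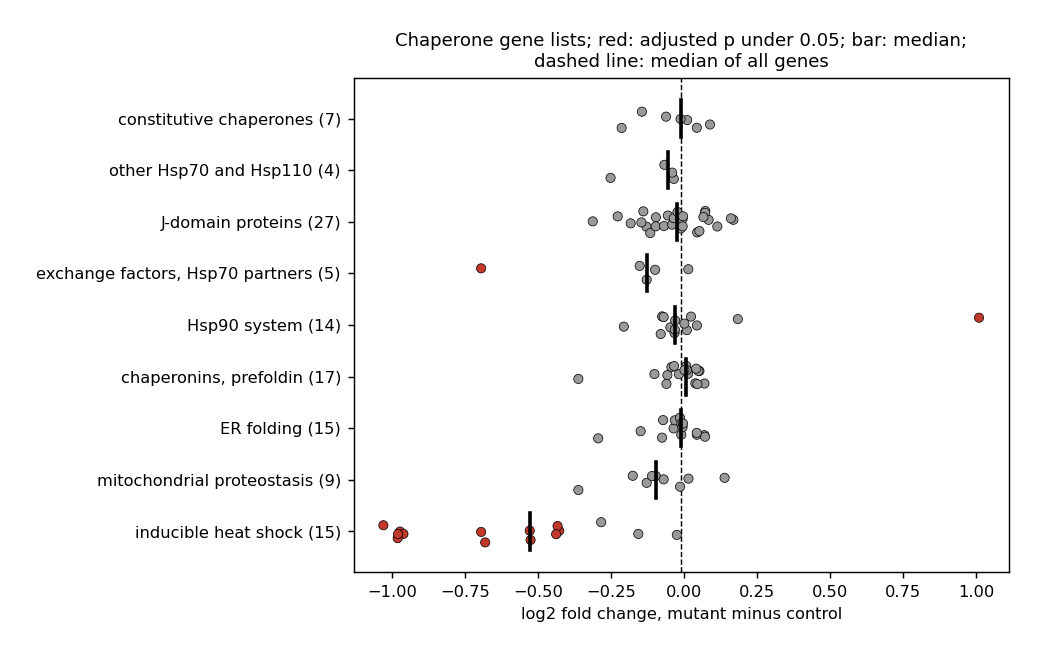
Log2 fold change, mutant minus control, of each listed gene in the constitutive chaperones, the 7 lists of other chaperone genes and the inducible heat-shock genes, with the number of listed genes in brackets, list medians as bars and the median of all genes as a dashed line. Red points passed limma: Dpit47 alone on the right, stv in 2 lists, and most of the inducible list, whose median is -0.53.

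The inducible heat-shock genes were read beside the members. Of 15 listed genes 12 fell and 0 rose in mutants (limma adjusted p under 0.05; 1.23% of all genes fell), with a median log2 fold change of -0.53, and these genes were known beforehand to be lower here. Hsp70Ab had log2 values of 3.79 and 3.68 in mutants, against 4.57 and 4.85 in controls, a 0.51-fold level, and its reads may be shared with near-identical Hsp70 copies. Hsp68, another inducible Hsp70, had 5.24 and 5.16 in mutants against 5.74 and 5.71 in controls. Hsf, the transcription factor of heat-shock genes, had a log2 fold change of -0.02 ± 0.09 (SE), which did not pass. The mean log2 value of the 15 genes was 3.98 and 3.99 in mutants, against 4.55 and 4.63 in controls. Among the constitutive chaperones 4 log2 fold changes were below 0 and 3 above. The lowest were those of DnaJ-1 (-0.21) and Hsp83 (-0.14), neither past the test. The difference in response between the constitutive and the inducible group was not tested. Both groups were set by gene name and not by a measured response to heat, so a constitutive member may be heat-inducible too.

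Each constitutive chaperone was also matched with the 1 gene, among 101 other listed chaperone and inducible heat-shock genes, whose pattern over the 4 libraries was closest, by the root-mean-square difference of log2 values centred on each gene's mean. Hsc70-5 lay nearest to Stip1, the Hop co-chaperone that links Hsp70 and Hsp90, at 0.0086. Hsp60A lay nearest to Hsp110 at 0.0142, Hsp60B to the J-domain gene CG6693 at 0.0161 and Hsc70-3 to CG11779, a gene of mitochondrial import, at 0.0175. Hsc70-4 lay nearest to the lectin chaperone gene Cnx99A at 0.028, with 5.53 and 5.24 in mutants against 5.41 and 5.27 in controls. Each match was chosen on these same values, so its likeness follows from the choice. DnaJ-1 lay nearest to Hsc20 at 0.0421 and Hsp83 to its mitochondrial relative Trap1 at 0.07, the loosest match of the 7. Among all genes tested, 5 were as near to Hsp60A, 7 to Hsc70-5, 41 to Hsp60B, 47 to Hsc70-3, 47 to DnaJ-1, 71 to Hsc70-4 and 170 to Hsp83.

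Predicted target sites of the deleted microRNA were looked up too. The authors' deposited table marks targets predicted by TargetScan for each arm of the microRNA, and by PITA for the 5p arm, and 0 of the 7 members have any of these marks. The TargetScan marks cover 5.36% of all listed genes for the 5p arm and 4.78% for the 3p arm, and the PITA marks cover 4.01%, so a count of 0 in 7 genes is near the background. The TargetScan mark of the 5p arm is on 6 of the 87 other chaperone genes (5.36% of all genes): CCT1, CCT3, CCT7, Cnx99A, ERp60 and Rme-8. That of the 3p arm is on 5 (4.78% of all genes): Hsp60C, Hsp60D, PEK, Hsc70-2 and Stip1. The PITA mark is on 1, CCT7 (4.01% of all genes). Both TargetScan counts are near the background, so they do not set these genes apart. Neither Dpit47 nor stv has a mark of any of the 3 kinds.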

How the data were processed

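RNA-seq values were deposited by the authors as log2 expression with a column for each library. What was logged, with what pseudocount, and how libraries were scaled is not given in the sources used here. TopHat is named in the submitters' processing notes; the genome build, annotation and read counter are unstated. The log2 fold change and the marks of targets and DESeq2 calls are the authors' own, per the file headers. No per-sample column was left unmapped (0 columns). Symbols were found for 7195 of 7326 identifiers, in a gene name table and in assembly Release 6 plus ISO1 MT, which was used for names, synonyms and overlaps only.

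All genes of the table were fitted with limma 3.58.1 (R 4.3.3, empirical Bayes trend, two-sided, Benjamini-Hochberg over 7326 genes, threshold 0.05), checked first on simulated data. Replicates were not blocked, because they share only a number. Permutation tests used SciPy 1.17.1. Members and lists were chosen with earlier results of these data known. Beside the members, up to 3 genes per list with the smallest p, called genes and nearest patterns were named; other named genes were chosen after their values were seen. List symbols were matched through synonyms after the table was seen. The planned comparisons of promoters and proteins were not run, because no sequences were used here. The p-values take in no variation beyond that between libraries, with 2 per genotype. In limma p-values, SEs and intervals, each gene's spread is moderated towards a trend fitted over all genes. They are therefore not set by the 4 values of a gene alone.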

Additional observations from a re-analysis of the deposited data

How the results depend on the processing

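The count of 0 called constitutive chaperones was the same under all 10 alternatives: median ratio scaling, quantile normalization, no variance trend, a pseudocount of 1, a mean log2 value of at least 3, the replicate block and each library left out. Leaving out each library in turn gave log2 fold changes from -0.156 to 0.134 for Hsc70-4, -0.0265 to 0.116 for Hsc70-3, -0.0355 to 0.0583 for Hsc70-5, -0.167 to 0.045 for Hsp60A, -0.32 to 0.033 for Hsp83, 0.06 to 0.12 for Hsp60B and -0.31 to -0.12 for DnaJ-1. Hsc70-4 turned to 0.00132 after median ratio scaling and 0.00805 after quantile normalization, moves smaller than its SE. A genotype left with 1 library is assumed to vary like the other. All genes called numbered 85 with the mean log2 minimum of 3, where fewer genes were tested, and ranged from 118 to 304 with 1 library left out. Other chaperone genes called numbered 1 with that minimum, which removes stv, and ranged from 2 to 3 with 1 library left out, where CG11267 was added without control replicate 1 and sip3 without control replicate 2; inducible genes called ranged from 10 to 13 with 1 library left out. With the replicate block 503 genes were called, or 6.87% of all genes, with 13 inducible genes and 0 constitutive chaperones. Of the other chaperone genes 7 (8.05%) were called in that setting, 1 higher and 6 lower. Those added by the block were CG11267, CG2790, CG7387, Hsc70-1 and sip3, each lower in mutants. Same-numbered libraries deviated with a correlation of 0.147 across genes (not independent replicates), with 2 pairs too few to show pairing. Hsp70Bbb and Hsp23 were the only called inducible genes to lose their call in some setting that tested them (adjusted p up to 0.0547 and 0.0717). Depth is unknown, so no counting error could be given for single values.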
